A study of Ceratotherium simum with 9 samples.

Results

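The microRNAs (miRNAs) miR-9 and miR-124, which are best known from the nervous system, were followed here in extracellular vesicles (EVs) from the follicular fluid (FF) of southern white rhinoceros (SWR) ovaries. They were represented by 4 entries, bta-miR-9-5p, eca-miR-9a, hsa-miR-9-3p and eca-miR-124, out of 3886 mature miRNA names of cattle (bta), horse (eca) and human (hsa), of which 733 held at least 1 read. The 4 entries were selected by name, with their levels by follicular stage already known. Their levels by stage are therefore a description without a test. The tests given concern other neural miRNAs and ratios within a library, compared between stages. These ratios come from the same reads by stage, so neither a stage difference nor its absence is read from their p-values. The list of other neural miRNAs was also chosen with earlier results of these data known, so its tests are no independent check.

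FF was aspirated from antral follicles of 2 SWR females that had both received oral chlormadinone acetate, a progestin, and then the GnRH analog Deslorelin. The follicles were grouped by diameter into growing (G, 11 to 17 mm), dominant (D, 18 to 29 mm) and pre-ovulatory (P, 30 to 34 mm). Each stage has 3 small-RNA libraries of EVs pooled over the 2 animals, so no group separates the animals. The study's methods describe pooled technical replicates and elsewhere speak of 3 biological replicates per group. The p-values set stage differences against the spread between libraries alone. That spread may thus be technical and does not cover differences between animals. The table holds miRNAs alone, which leaves no protein marker in it to check the vesicle or follicle label with. Separately, the study reported EV marker proteins by western blot and examined the vesicles by electron microscopy and nanoparticle tracking. Of the entries listed as ovarian somatic miRNAs, 6 of 33 had a read, led by bta-miR-202, a gonadal miRNA, with 597 reads over the 9 libraries. Their summed level was 841 to 2459 CPM over G, 378 to 3158 over P and 0 to 4321 over D, where D2 had no read of any of them.

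Most miRNA genes yield a hairpin whose arms, 5p and 3p, can each give a mature miRNA that pairs with messenger RNAs through its seed. In human and mouse brain, miR-9 is abundant in neural progenitors and young neurons, and both of its arms are known as regulators. There the 5p arm represses the neuronal gene silencer REST and the 3p arm its partner CoREST. In the same species miR-124 is the leading miRNA of mature neurons, where it represses the splicing factor PTBP1 and many non-neuronal transcripts.

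The 3 miR-9 sequences are shown because the counts of their entries cannot be read apart from them. They come from the study's supplementary material, read 5′ to 3′ with T for U, and the capitals mark the seed, bases 2 to 8.
bta-miR-9-5p: tCTTTGGTtatctagctgtatg
eca-miR-9a: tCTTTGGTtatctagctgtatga
hsa-miR-9-3p: aTAAAGCTagataaccgaaagt
The bovine and the equine 5p entry are identical over 22 bases, and the equine entry ends in 1 further A. A read of the shared 22 bases fits both names, so the reads of the pair are also given as a sum. The 3p entry is the opposite arm of the hairpin. It pairs with eca-miR-9a through 18 base pairs in a predicted duplex, and its seed is another one. The seed of eca-miR-124 is AAGGCAC, so the 4 entries hold 3 distinct seeds. The sequences are those of the reference species. Where the hairpins lie in the rhinoceros genome was not analysed here.

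The libraries held 18384 to 149281 recovered miRNA reads. In the study's supplementary read summary, G3 had the most raw reads of all libraries. The share of its reads that passed quality control was the lowest, far below that of every other library. Whether this affected the G3 levels was not tested. The values are TMM-adjusted CPM, that is, read counts relative to library size after scaling by the trimmed mean of M-values, in which 1 read was worth 5.64 CPM in G3 and between 18.7 and 38.6 CPM in the others. The scaled values of D2 add up to 3229600 CPM and those of the others to between 682350 and 1585600 CPM, so levels in D2 are higher relative to the others in CPM than as a share of reads. Intervals given for reads cover counting error only, since the reads carry no molecular identifiers. The 4 entries together made up 0.294 to 5.67% of the miRNA reads in G, 0.0596 to 0.152% in D and 0.892 to 2.74% in P.

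The 5p arm of miR-9 was at its lowest in the D group, and the P libraries and 2 of the 3 G libraries were above every D library for both of its entries. For bta-miR-9-5p the G libraries had 3961, 703 and 16310 CPM in G1, G2 and G3, which rest on 145, 21 and 2890 reads. The D libraries had 544, 325 and 391 CPM (20, 15 and 17 reads) and the P libraries 3345, 7884 and 7476 CPM (179, 204 and 297 reads). Every G and every P library was above all D libraries, and the G range enclosed the P range. The G libraries averaged 6992 ± 8233 CPM, the D libraries 420 ± 113 and the P libraries 6235 ± 2511 (SD, n = 3). Fewer vesicles of a given origin and fewer copies per vesicle cannot be told apart in such libraries.

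The equine entry eca-miR-9a gave the higher count of the pair in 7 of 9 libraries. It had 6120, 1138 and 27654 CPM in G1, G2 and G3, against 626, 1514 and 299 CPM for D1 to D3 and 4260, 7111 and 10874 CPM for P1 to P3. Here G2 was below D2 in CPM, so the G and D groups overlapped, and every P library stayed above every D library. As a share of all miRNA reads, which is not scaled as CPM is, G2 had 0.167% (95% Wilson interval 0.119 to 0.233%). No D library had more than 0.0713% (D1, 0.0475 to 0.107%). Whether G2 was above D2 thus depended on the scaling. Mean levels were 11637 ± 14093 CPM for G, 813 ± 629 CPM for D and 7415 ± 3317 CPM for P (SD, n = 3). Within a library, eca-miR-9a was the 8th most abundant entry in G3 and ranked 20th to 39th in P, but 74th to 131st in D.

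Summed over both entries, miR-9-5p had 10081, 1841 and 43964 CPM in the G libraries, 1170, 1839 and 689 CPM in the D libraries and 7605, 14996 and 18350 CPM in the P libraries. G2 exceeded D2 by 2 CPM, a margin far below the worth of 1 read, so the separation of G from D in CPM is not resolved. G3, the library with the lowest share of reads passing quality control, alone held 78.7% of the summed G signal and 94.8% of its reads. As a share of all miRNA reads, the sum was 5.26% in G3 (95% Wilson interval 5.15 to 5.37%), 0.270% in G2 (0.207 to 0.351%) and 0.0569% in D2 (0.0461 to 0.0704%). The separation of G2 from D2 thus depended on the scaling here too.

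**Figure D1:**
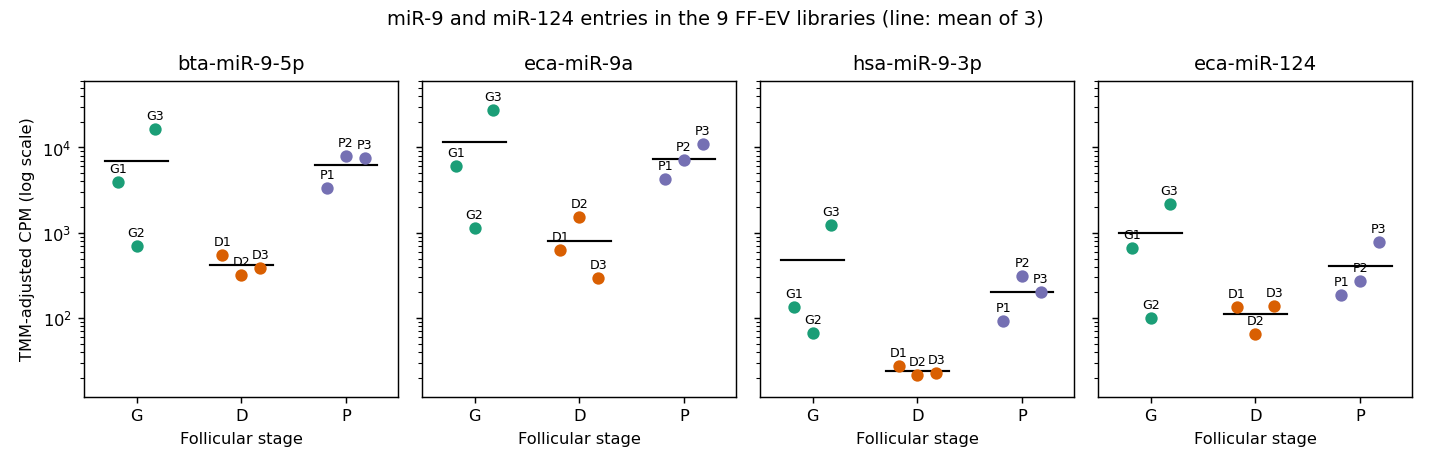
TMM-adjusted CPM (log axis) of the 4 entries in each library by follicular stage, with 1 point per library and a line at the mean of 3. All 4 entries are highest in G3, and the P libraries lie above the D libraries for each entry, while the G libraries spread over a range of 18.5-fold to 24.3-fold.

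The 3p arm was also lowest in D, at far lower counts. For hsa-miR-9-3p the G libraries had 136.6, 66.9 and 1242 CPM from 5, 2 and 220 reads, and the P libraries 93.4, 309 and 201 CPM from 5, 8 and 8 reads. Each D library had exactly 1 read, which is 27.2, 21.6 and 23.0 CPM in D1, D2 and D3. Every G and P library was above the D libraries, with 1 read separating D1 from G2. Mean levels were 482 ± 659 CPM for G, 23.9 ± 2.90 CPM for D and 201 ± 108 CPM for P (SD, n = 3), and G3 held 96.9% of the G reads. A lower level of the 3p arm than 1 read per library in D was not detectable at this depth.

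The miR-124 entry had the smallest P vs. D value of the 4, with a log2 change of 1.58. eca-miR-124 had 656, 100 and 2190 CPM in G1, G2 and G3 (24, 3 and 388 reads), 136.0, 64.9 and 137.9 CPM in the D libraries (5, 3 and 6 reads), and 187, 271 and 780 CPM in the P libraries (10, 7 and 31 reads). G2 lay among the D libraries, and P1 and P2 exceeded the highest D library by 48.97 and 132.7 CPM, which is 2.62 reads in P1 and 3.43 reads in P2. Averages were 982 ± 1082 CPM for G, 113 ± 41.6 CPM for D and 413 ± 321 CPM for P (SD, n = 3).

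A further 4 entries carry a miR-9 or miR-124 name and hold a read, and none passed the filter described below. bta-miR-124a had 10 reads and hsa-miR-124-3p 2 reads, all in G3. The opposite arm hsa-miR-124-5p had 19 reads in G3 and 4 in P1, and bta-miR-9-3p had 5 reads in G3 and 2 in P3. In the other libraries these entries had no read, which is compatible with up to 3 reads, or 56.1 to 115.9 CPM outside G3.

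Differences between stages were computed as log2 changes of CPM + 10 from a limma fit over the 417 miRNAs that exceeded 10 CPM in 2 or more libraries of any stage. This scale understates the change of miRNAs with few reads. All 4 entries passed this filter, and did so in each stage. In G vs. D the changes were 3.09 for bta-miR-9-5p (standard error 0.94), 3.12 for eca-miR-9a (0.99), 2.84 for hsa-miR-9-3p (1.23) and 2.21 for eca-miR-124 (1.14). Their median was 2.96, beside 0.43 over all miRNAs tested. In P vs. D the values of the same entries were 3.79 (0.94), 3.37 (0.99), 2.497 (1.23) and 1.58 (1.14), with a median of 2.93 beside 0.16. Both comparisons share the D libraries. Without D2, the library with no ovarian somatic read, the values in G vs. D were 2.93 for bta-miR-9-5p, 3.71 for eca-miR-9a, 2.79 for hsa-miR-9-3p and 1.89 for eca-miR-124, and those in P vs. D were 3.63, 3.96, 2.45 and 1.26.

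In P vs. G no common direction was seen. The changes were 0.70 for bta-miR-9-5p, 0.26 for eca-miR-9a, -0.34 for hsa-miR-9-3p and -0.63 for eca-miR-124, each smaller than its standard error and with a median of -0.04 beside -0.28 over all tested miRNAs. The signs depended on single libraries. Without G2 all 4 changes were negative, from -1.78 to -0.47, and without G3 all 4 were positive, from 0.38 to 1.79. Without P1 hsa-miR-9-3p was at 0.10, and without P3 eca-miR-9a was at -0.07.

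A miRNA was called at an adjusted p under 0.1 (Benjamini-Hochberg) with at least a 2-fold change. Since the entries were chosen with these contrasts known, nothing is read from their calls. In limma 0 of 4 were called in G vs. D, where 0.959% of all tested miRNAs were called. In P vs. G it was also 0 of 4 (0.480% of all), and P vs. D had 1 of 4, bta-miR-9-5p (2.64% of all). That call was lost when any single D or P library was left out. At the same thresholds, the study's own analysis in CLC Genomics Workbench reported both miR-9-5p entries as lower in D than in G and in P. Its calls for these entries thus differ from those of limma. The replicates did not overlap for 2 of 4 between G and D (14.6% of all tested miRNAs), 0 of 4 between P and G (9.59%) and 4 of 4 between P and D (22.3%). Without G3 the change of the summed miR-9-5p entries in G vs. D was 1.91 instead of 3.02, and without G2 it was 4.19.

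**Figure D2:**
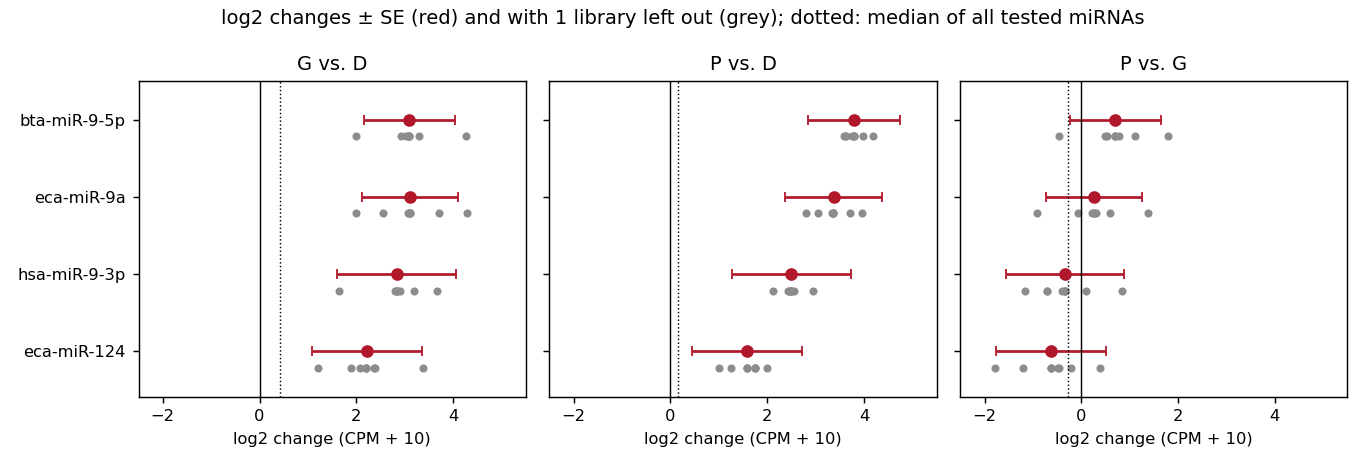
log2 change of CPM + 10 for the 4 entries in each comparison (red, ± standard error), with the values when each of the 9 libraries is left out in grey and the median of all tested miRNAs as a dotted line. In G vs. D and P vs. D all points lie above 0, while in P vs. G they fall on both sides of 0.

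The arms of miR-9 were compared within each library, a ratio that does not depend on how libraries are scaled. These shares come from the same reads by stage that were known when the entries were chosen, so no p given for them is evidence for or against a stage difference. The 3p arm gave 1.34, 3.51 and 2.81% of all miR-9 reads in G1, G2 and G3, against 2.27, 1.16 and 3.23% for D1 to D3 and 1.21, 2.02 and 1.35% for P1 to P3. The 5p arm thus outnumbered the 3p arm in every library, and the 3 stages overlapped. The mean 3p share was 2.55 ± 1.11% for G, 2.22 ± 1.03% for D and 1.53 ± 0.43% for P (SD, n = 3). The stages were compared by an exact permutation test over all 1680 assignments of libraries to stages, two-sided by its F statistic. It gave p = 0.4 (exact permutation, adjusted p = 0.6 over the 3 shares tested). Each D library had 1 read of the 3p arm, so the test could not decide whether the stages differ. In D the share rests on 3 of 161 reads, so the interval of D3 runs from 0.572 to 16.2%.

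The bovine entry took 39.3, 38.2 and 37.1% of the miR-9-5p reads in the G libraries, which agree within their counting intervals although G3 had 141.6 times the reads of G2. In P the share was 44.0, 52.6 and 40.7%, and in D it was 46.5, 17.6 and 56.7%. D2 stood apart, and its 95% Wilson interval, 11.0 to 27.1%, lies below that of every library but G2, whose interval starts at 26.5%. The exact permutation p for the stages was 0.771 (adjusted p = 0.771), and without D2 it was 0.0929. Neither a stage difference nor its absence is read from these values. D2 also had the highest level of eca-miR-9a among the D libraries and the lowest of bta-miR-9-5p. The study's methods gave equine names priority, and the bovine name nevertheless holds reads in every library. How a read that fits both names was assigned is not described further in them.

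Of all miR-9 and miR-124 reads, miR-124 entries made up 6.03, 5.0 and 4.97% in the G libraries, 10.2, 3.37 and 16.2% in the D libraries and 3.29, 1.74 and 4.03% in the P libraries. All P shares were below all G shares, D1 and D3 were above both groups, and D2 lay between P1 and P3. The means were 5.33 ± 0.60% for G, 9.93 ± 6.43% for D and 3.02 ± 1.17% for P (SD, n = 3), with an exact permutation p of 0.136 (adjusted p = 0.407 over the 3 shares). The p depended on D2, without which it was 0.00357 (exact permutation), the smallest the assignments can give. No stage difference is read from that value, since it leaves out the 1 D library that lies among the others and since D1 and D3 rest on 5 of 49 and 6 of 37 reads.

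**Figure D3:**
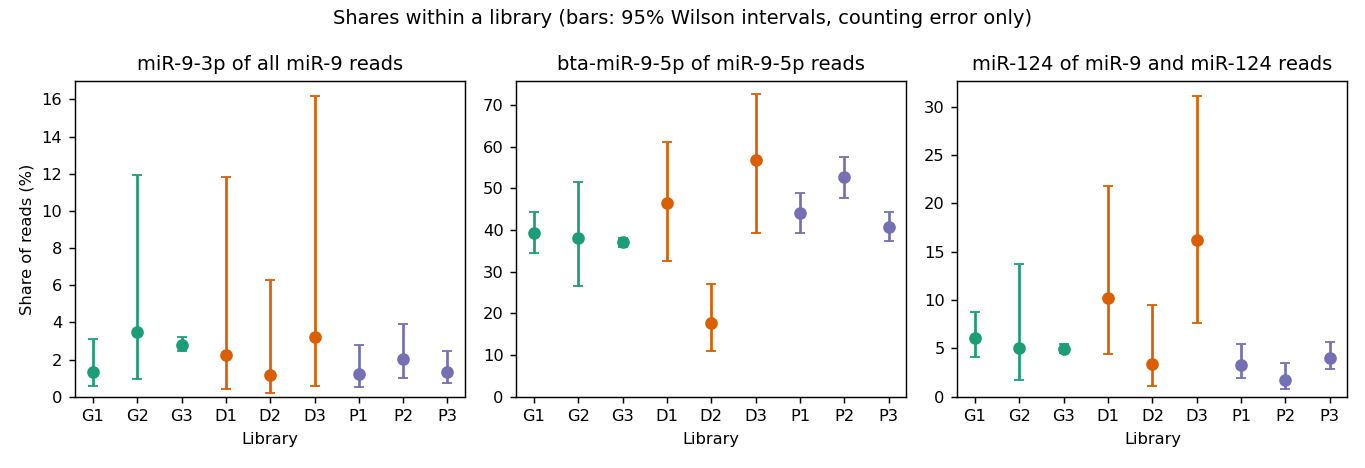
Share of reads (%) by library for the miR-9-3p arm, the bovine miR-9-5p entry and the miR-124 entries, coloured by stage, with 95% Wilson intervals. The 3p share stays between 1.16 and 3.51%, D2 has the lowest share of the bovine entry (17.6%), and D1 and D3 have the highest share of miR-124 (10.2 and 16.2%).

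For comparison, a list of other neural miRNA families matched 50 entries, of which 32 had a read and 23 were tested. Of the 23, limma called 0 in each comparison, where the calls over all tested miRNAs were 0.959% (G vs. D), 0.480% (P vs. G) and 2.64% (P vs. D), so 0 of 23 is near the background. At an unadjusted p under 0.05 limma had 2, 1 and 1 of the 23, beside 39, 31 and 61 of all 417. The edgeR count was also 0 (2, 0 and 2 at an unadjusted p under 0.05), as was that of DESeq2 (1, 0 and 0). The median log2 change of the list was 0.41 in G vs. D and 0.33 in P vs. D, beside 0.43 and 0.16 over all tested miRNAs. With entries that had no read in D set to their lower bound against 3 reads over the D group, it was 0.25 in G vs. D (4 such entries) and 0.36 in P vs. D (3 such entries, with eca-miR-153 left out because P had no read either). Replicates did not overlap for 1 of 23 between G and D (14.6% of all tested miRNAs), 1 between P and G (9.59%) and 2 between P and D (22.3%). Without G1, eca-miR-153 was called by limma in G vs. D (2.03, adjusted p = 0.0548) and P vs. G (-2.03, adjusted p = 0.0626), with 1 read in G2 and 5 in G3 as its only reads.

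None of the 4 most abundant of them passed the test in any comparison. eca-miR-128, which is enriched in brain, averaged 9568 ± 4340 CPM over the G, 10956 ± 1245 CPM over the D and 12321 ± 2069 CPM over the P libraries (SD, n = 3), and its change in P vs. D was 0.16 (standard error 0.49, limma adjusted p = 0.935). The neuroendocrine miRNA bta-miR-7 averaged 2718 ± 762, 3712 ± 2372 and 3831 ± 1365 CPM in the same order (0.20 in P vs. D, standard error 0.65, limma adjusted p = 0.945). Its equine entry eca-miR-7, which may share reads with it, averaged 845 ± 356, 788 ± 732 and 1380 ± 266 CPM (1.17 in P vs. D, standard error 0.79, limma adjusted p = 0.425).

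eca-miR-129a-5p, another miRNA of brain, had 574, 435 and 3008 CPM in G1, G2 and G3, 626, 281 and 345 CPM in the D libraries and 243, 502 and 705 CPM in the P libraries. It was highest in G3, as the miR-9 and miR-124 entries were, but P and D overlapped. The entry bta-miR-129, named after its values were seen, had no read in D, 97 reads in G (94 of them in G3) and 7 in P. Against a floor of 3 reads over the D group it was at least 16.8-fold higher in G and at least 2.48-fold in P, with limma adjusted p values of 0.367 and 0.317. Each bound rests on 1 library, since without G3 only 3 reads remained in G and without P3 only 2 in P, which is no more than the floor. Of the 23 neural entries, 9 were highest in G3 (39.1%), as were 26.1% of all tested miRNAs and all 4 miR-9 and miR-124 entries.

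**Figure D4:**
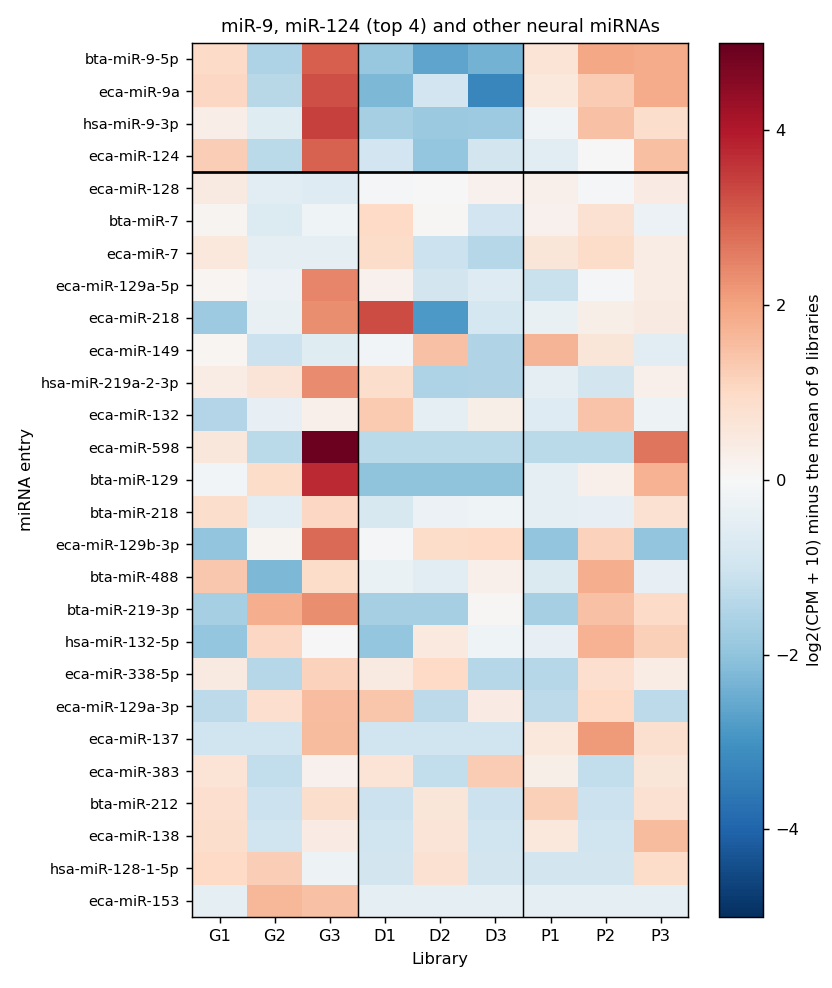
Level of the 4 miR-9 and miR-124 entries (above the black line) and of the 23 other tested neural entries in each library, as log2(CPM + 10) minus the mean of the 9 libraries, ordered by mean CPM below the line. The top 4 rows lie below their own mean in every D library and in G2 and are highest in G3, while eca-miR-128 stays within 0.66 of its mean in all 9 libraries.

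The profiles most like those of the miR-9 and miR-124 entries were measured by the root mean square difference of the centred log2(CPM + 10) values over the 9 libraries. For summed miR-9-5p the nearest were hsa-miR-382-3p (0.56), hsa-miR-548o-3p (0.87) and eca-miR-379 (0.88), against a median of 2.12 over the tested miRNAs. hsa-miR-382-3p and hsa-miR-548o-3p were also among the 3 nearest to hsa-miR-9-3p, with bta-miR-411a (0.69), and to eca-miR-124, with eca-miR-335 (0.68). eca-miR-335 had only 10 reads in all, with none in G2, any D library, P1 or P2, so its closeness rests on few reads. hsa-miR-382-3p had 54.6, 0 and 220.1 CPM in the G libraries, 0 in each D library and 37.4, 38.6 and 75.5 CPM in the P libraries, a total of 47 reads, and hsa-miR-548o-3p had 19 reads in all. eca-miR-379 is better covered, with 261 reads, and had 519, 134 and 1067 CPM across G, 27.2, 108 and 0 CPM across D and 448, 348 and 252 CPM across P.

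Among each other, the closest of the 4 entries were bta-miR-9-5p with eca-miR-9a (0.69) and with hsa-miR-9-3p (0.70), and the farthest apart were eca-miR-9a and eca-miR-124 (1.10). The 5p entries are not independent of each other, since a read of their shared bases fits both names. All 4 entries were chosen with their levels by stage known, so nothing is read from their likeness.

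Levels of other cell types' markers are given beside these, since some of their ranges differed between stages, which was not tested. The leukocyte miRNAs had a read in 10 of 12 entries. Their summed level ran from 1448 to 3682 CPM over the G libraries, 3699 to 9433 over D and 766 to 1198 over P. The median was highest in D (7032 CPM, beside 1800 in G and 1183 in P). The lowest D library was above the highest G library by less than 1 read is worth in any D library. The red-cell entries (7 of 9 with a read) summed to 37592 to 159300 CPM for G, 82089 to 214200 for D and 33508 to 57460 for P. The liver miRNA miR-122 (1 of 4 entries with a read) ranged over 7309 to 20244, 20499 to 43082 and 12213 to 17796 CPM in that order. For the endothelial miR-126 entries the ranges were 7513 to 10943, 10961 to 16117 and 4561 to 6335 CPM. Here too G and D were apart by less than 1 read is worth in any D library. For the epithelial list the ranges were 12376 to 32733, 6274 to 15145 and 11629 to 13295 CPM, which overlapped. The part of these cell types in the levels of miR-9 and miR-124 was not tested.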

How the data were processed

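EVs were isolated by ultracentrifugation and size exclusion. According to the study's methods, the authors trimmed the reads in CLC Genomics Workbench 21 and annotated them to equine (given priority), bovine and human miRNAs of miRBase 22 with at most 2 mismatches. The submitters' processing notes also name bcl2fastq and DESeq2, with no role given. The deposited values are signal values, TMM-adjusted CPM. Dividing a library by its lowest nonzero value returned whole reads, within 0.01 of a read, for 100% of its values. limma 3.58.1 (R 4.3.3, trended variance) was fitted to log2(CPM + 10) of all 9 libraries, with Benjamini-Hochberg adjustment over the 417 miRNAs tested. As alternatives, the recovered reads were tested with edgeR 4.0.16 and DESeq2 1.42.0. DESeq2 left the adjusted p of 2 neural entries missing in G vs. D, of 15 in P vs. G and of 11 in P vs. D. Shares were compared by exact permutation (Python 3.11.15, numpy 2.4.6), and pairing of the arms was predicted with RNAduplex of ViennaRNA 2.7.2. The limma fit and the exact permutation test were also run on simulated data. The simulated differences were large, so performance on smaller ones was not tested.

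The members and lists were chosen with earlier results of these data known. Named besides the 4 members were all entries of these names with a read, the 4 most abundant and all called entries of the neural list, and the 3 nearest profiles. The neural list held miR-7, miR-128, miR-129, miR-132, miR-137, miR-138, miR-149, miR-153, miR-212, miR-218, miR-219, miR-326, miR-338, miR-383, miR-488, miR-598 and miR-885.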

Additional observations from a re-analysis of the deposited data

How the results depend on the processing

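The changes of miR-9-5p (summed), of its entries, of hsa-miR-9-3p and of eca-miR-124 in G vs. D and P vs. D kept their sign under all 18 alternatives tried for each (pseudocount, filter, scaling, tool, variance trend, groups in the fit, replicate block, 1 library left out). Several of these cannot move a change, namely the filter, the trend, the groups in the fit, the block and leaving out a library outside the comparison. The entries were also chosen with these contrasts known, so the kept signs are no independent support. For the sum they ran from 1.91 to 4.19 in G vs. D and from 3.12 to 4.30 in P vs. D. In P vs. G the sum ran from -0.72 to 1.57 around a value of 0.45, and was -0.38 with edgeR and -0.02 with DESeq2. Total-sum scaling moved the median of all tested miRNAs to 0.77 (G vs. D), -0.03 (P vs. G) and 0.70 (P vs. D), and the sum to 3.51, 0.79 and 4.30. Of the 4 members, DESeq2 called 3 in G vs. D and 2 in P vs. D, and edgeR 1 and 1. In P vs. D, 2 were called under total-sum scaling, with only 2 groups in the fit or without G3. Without G2, 2 were called in both comparisons, and without the trend 0. The share of all tested miRNAs called under each of these settings is not given here, so nothing is read from these counts.

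With 1 library left out, the exact permutation p of the 3p share ran from 0.146 to 0.614, that of the bovine share from 0.0929 to 0.925 and that of the miR-124 share from 0.00357 (without D2) to 0.25. Neural calls in G vs. D and in P vs. G ran from 0 to 1. Same-numbered libraries did not deviate together (r from -0.0552 to 0.141 across the tested miRNAs, which are not independent replicates). With the number as a replicate block, the exact p of the 3 shares was 0.472, 0.778 and 0.139, and bta-miR-9-5p in P vs. D was the 1 member called, as without it.

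Few reads limit the precision of the D levels, where hsa-miR-9-3p rests on 3 reads and eca-miR-124 on 14.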
